A study of Homo sapiens with 8 samples.

Results

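The genes described here are 8 genes of the cholesterol synthesis pathway, HMGCS1, MVK, IDI1, FDFT1, SQLE, LSS, CYP51A1 and SREBF2, in the human pancreatic cancer line MIA PaCa-2. They were chosen by name: every H3K9ac peak that the authors' annotation gave to one of the 8 symbols, and every H3K27ac peak with its centre within 2 kb of such a peak. All 8 had such a peak, among 12186 gene names in the H3K9ac lists, and together they held 34 of the 57049 peaks in the 4 lists. Of these, 12 of 20326 were stromal H3K9ac peaks and 3 of 7141 astromal H3K9ac peaks. A further 9 of 15093 were stromal H3K27ac peaks and 10 of 14489 astromal H3K27ac peaks. None of the 8 genes is itself an uptake gene, so the genes of sterol uptake are given only among the other genes of the pathway.

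H3K9ac and H3K27ac are acetyl marks on histone H3 that accompany active promoters, and H3K27ac marks enhancers too. Both were measured by chromatin immunoprecipitation and sequencing (ChIP-seq). In the stromal condition, cells from a single line were embedded in a hydrogel of hyaluronan (Glycosil), the collagen component Gelin-S and the crosslinker PEGDA. They were fed medium with 2% FBS that immortalized myofibroblasts, grown from resected human pancreatic tumours, had conditioned for 48 h. In the astromal condition the gel had water in place of Gelin-S and the medium was plain DMEM with 2% FBS. Both conditions had serum-rich DMEM on the first day, and both grew as spheroids. The gel component and the conditioned medium therefore changed together and cannot be told apart, and no stromal cells were in the gels. Each mark and condition was 1 library, so no difference below has a replicate check and no p-value is given. Intervals in brackets are exact 95% intervals that cover counting error only.

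Cholesterol is built from acetyl-CoA through mevalonate, isoprenoid units, squalene and lanosterol. When sterols run low, the transcription factor SREBP-2, encoded by SREBF2, is released from its membrane precursor and binds sterol regulatory elements in the promoters of the pathway's enzymes. SREBP-2 is known to act with NF-Y, which binds CCAAT boxes, and with Sp1, which binds GC boxes. Among the 8 genes, HMGCS1 makes HMG-CoA, MVK phosphorylates mevalonate, IDI1 interconverts the isoprenoid isomers, FDFT1 joins farnesyl units into squalene, SQLE oxidises squalene, LSS closes the ring to lanosterol, and CYP51A1 demethylates lanosterol.

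Promoter windows of 3 of these genes are shown because they span the range of what was found by sequence. The SREBF2 window holds an exact match to the sterol regulatory element, the MVK window is rich in CCAAT boxes, and the CYP51A1 window matches neither. Capitals mark matches to the sterol regulatory element TCACNCCAC or to CCAAT, on either strand. Each window runs from 250 bases before to 50 after a gene start, 5′ to 3′ along the gene, from RefSeq on build GRCh38.p14. The windows are chr22:41832855-41833154 on the plus strand, chr12:109573544-109573843 on the plus strand and chr7:92134428-92134727 on the minus strand, in the order printed. Peak positions are on build hg19 and are not placed on these windows.
SREBF2: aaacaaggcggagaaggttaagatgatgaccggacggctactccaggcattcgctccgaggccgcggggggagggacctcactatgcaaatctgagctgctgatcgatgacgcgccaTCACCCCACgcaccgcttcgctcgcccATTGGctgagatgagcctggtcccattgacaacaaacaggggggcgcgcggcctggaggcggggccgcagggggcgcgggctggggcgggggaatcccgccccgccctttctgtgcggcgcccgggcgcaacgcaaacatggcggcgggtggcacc
MVK: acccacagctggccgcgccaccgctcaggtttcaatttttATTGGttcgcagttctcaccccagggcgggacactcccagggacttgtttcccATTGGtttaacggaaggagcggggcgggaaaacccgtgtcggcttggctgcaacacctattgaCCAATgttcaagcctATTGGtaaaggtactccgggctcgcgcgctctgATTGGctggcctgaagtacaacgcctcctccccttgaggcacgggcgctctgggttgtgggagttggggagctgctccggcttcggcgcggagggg
CYP51A1: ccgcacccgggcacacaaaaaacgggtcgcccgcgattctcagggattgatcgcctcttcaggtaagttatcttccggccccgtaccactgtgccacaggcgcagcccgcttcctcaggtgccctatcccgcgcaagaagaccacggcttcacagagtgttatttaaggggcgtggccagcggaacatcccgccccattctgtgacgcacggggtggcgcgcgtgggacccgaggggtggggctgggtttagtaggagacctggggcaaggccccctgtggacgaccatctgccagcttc
RefSeq windows were matched by symbol for 6 of the 8 genes, 9 windows in all. The sterol regulatory element was found in 1 of the 6 genes, SREBF2, with its first base at -133 from the start. It occurs in 1.13% of all 35116 windows. CCAAT or its reverse complement was found in 5 of the 6 genes and 6 of the 9 windows, against 34.6% of all windows. MVK had 5 matches, at -210, -157, -94, -79 and -46, and 3.26% of all windows have at least 3. IDI1 had 3 matches in one window, a pair of them overlapping on opposite strands, and 2 in another. HMGCS1 had 2, LSS 1 and SREBF2 1. No sterol element match overlapped a CCAAT match. GC boxes, GGGCGG on either strand, were in all 9 windows against 45.0% of all, with 7 matches in LSS. TATAAA on either strand was in 1 of the 9 windows, that of HMGCS1 at -29, and in 11.5% of all. These are exact matches of letters and not sites shown to be bound, and sites that differ from the searched letters would be missed.

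The 2 H3K9ac libraries differed in depth. Depth was 7569604 tags for stromal H3K9ac and 3925277 for astromal H3K9ac, both estimated from the size of 1 tag in the deposited values. This takes the H3K9ac values to be scaled to 10000000 tags, as the headers state for H3K27ac. For H3K27ac it was 17190695 stromal and 13453902 astromal tags. The median peak held 20 tags in the stromal and 9 in the astromal H3K9ac list, and 20 stromal and 18 astromal tags for H3K27ac. Tags inside peaks were 5.81% of the stromal and 1.76% of the astromal H3K9ac library, and 1.97% and 2.17% in the stromal and astromal H3K27ac libraries. Of 7 epithelial markers, 4 had H3K9ac in at least 1 list (KRT8, KRT18, KRT19 and MUC1) and KRT7, EPCAM and CDH1 had none. Of 3 mesenchymal markers, VIM was listed in the stromal condition only, for both marks, and CDH2 and ZEB1 had no H3K9ac in either list. Of 9 fibroblast markers, COL1A1, COL1A2 and ACTA2 had H3K9ac, in the stromal list only, and of these 3 only COL1A2 had H3K27ac nearby, in both lists. H3K27ac was looked for beside H3K9ac peaks only, so not at the other 6. The part of these differences in the results below was not tested.

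H3K9ac at the cholesterol genes was listed mainly in the stromal condition. By the authors' gene names, 6 of the 8 genes (75.0%) had H3K9ac in the stromal list only: HMGCS1, MVK, IDI1, SQLE, LSS and SREBF2. Across all 12186 names this share was 52.2%, so stromal-only listing was common to most genes. CYP51A1 was listed in the astromal condition only by its own name, against 0.935% of all names, but a stromal peak under the name of its antisense neighbour covers the same place (below). FDFT1 was in both lists, as were 46.8% of all names. Levels below are the deposited values summed over the peaks of a gene, in tags per 10000000 tags of the library. For H3K9ac that scale was assumed.

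**Figure D1:**
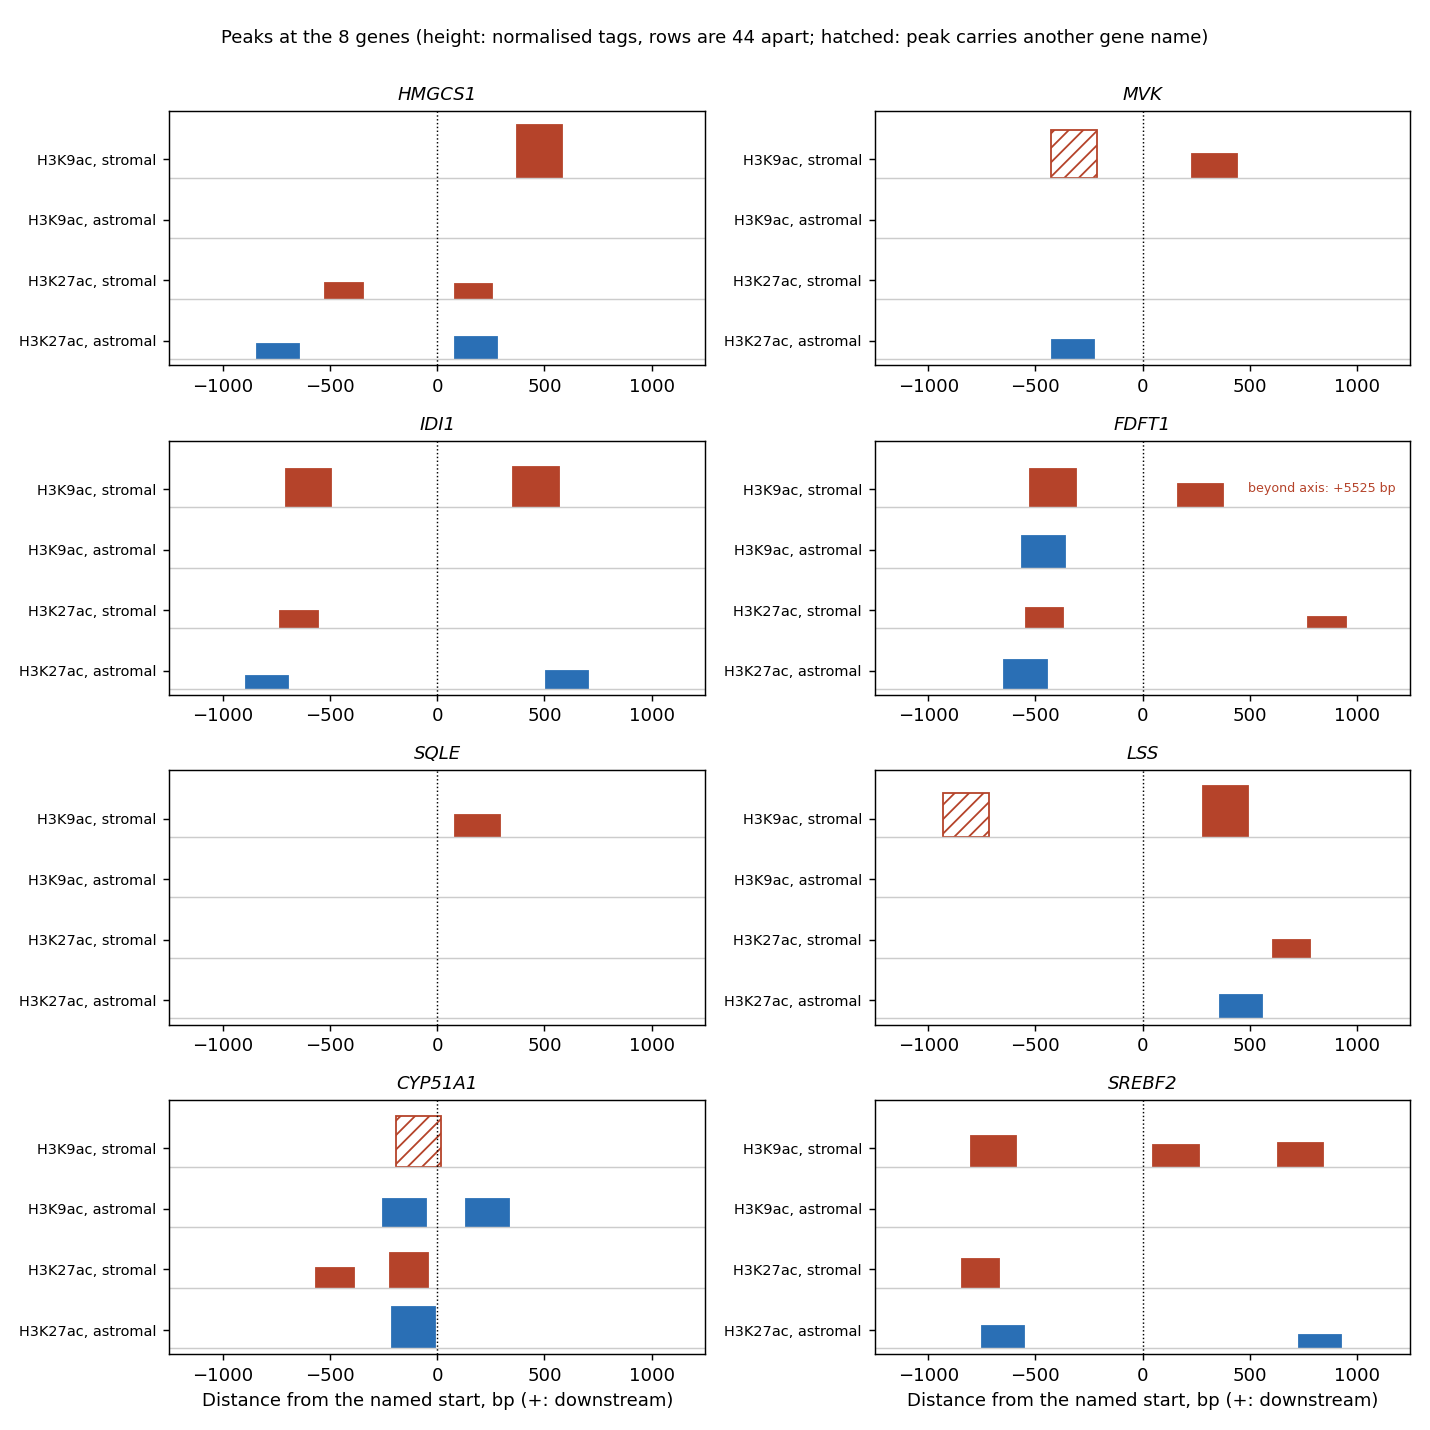
Peaks of both marks at the 8 genes, by distance in bp from the start named in the authors' annotation; boxes are peaks (hatched where the peak carries a neighbour's name), box width is the called width and box height the normalised tags, red for stromal and blue for astromal. Stromal H3K9ac peaks stand at every gene, 1 of them (FDFT1, 5525 bp downstream) beyond the axis, and astromal H3K9ac peaks only at FDFT1 and CYP51A1.

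The early enzymes of the pathway had stromal H3K9ac and no astromal peak nearby. HMGCS1, the HMG-CoA synthase, had 38.3 normalised tags (29 tags, 19.4 to 41.6) in the stromal library at chr5:43313031-43313241 in hg19. That peak lies in intron 1, 478 bp downstream of the named start, and is above 81.1% of stromal H3K9ac peaks or level with them. The nearest astromal H3K9ac peak was 170.59 kb away. MVK, mevalonate kinase, had 17.2 normalised tags (13 tags, 6.92 to 22.2) in the stromal library at chr12:110011732-110011942, 337 bp downstream of its start. This is a weak peak, at the 21.8 percentile of its list. A stronger stromal peak, with 34.3 normalised tags (26 tags), lay upstream of the MVK start, at -320 bp. The authors' file gave it to MMAB, the neighbouring gene for a cobalamin enzyme. With both peaks the stromal level at MVK was 51.5, and no astromal H3K9ac peak lay within 96.5 kb. IDI1 had 29.1 normalised tags in the stromal library at chr10:1094495-1094705, in intron 1, and 27.7 at chr10:1095558-1095768, upstream of the start at -602 bp. Their sum was 56.8 (43 tags), and the nearest astromal peak was 6.46 kb away.

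Of the squalene and lanosterol enzymes, FDFT1 had H3K9ac in both conditions and SQLE and LSS in the stromal list only. FDFT1, squalene synthase, had 3 stromal peaks with 27.7, 17.2 and 15.9 normalised tags, against 1 astromal peak with 22.9 (9 tags). The stromal peak of 27.7 lay upstream of the main start, at -418 bp, and overlapped the astromal one; the peak of 15.9 lay 5525 bp downstream, beside the start of another transcript. Summed, FDFT1 had 60.8 stromal and 22.9 astromal normalised tags, a log2 ratio of 1.41 (0.36 to 2.62). The median gene in both lists had 0.99, a 1.98-fold higher stromal level (n = 5706), so FDFT1 stood 0.42 above it (-0.63 to 1.64). By its highest peak alone it stood at -0.40, on the other side of the median. It was not past 2-fold from the median, as 12.9% of shared genes were. SQLE, squalene epoxidase, had the weakest H3K9ac of the 8 genes, 15.9 normalised tags (12 tags, 6.2 to 21.0) in 1 stromal peak in the 5′ UTR of exon 1, 187 bp downstream of the start. No astromal peak lay within 431.67 kb of it. LSS, lanosterol synthase, had 37.0 normalised tags (28 tags) in the stromal library at chr21:47648247-47648457, 386 bp downstream of its start. A stromal peak of 31.7 (24 tags) lay upstream at -823 bp under the name MCM3AP-AS1, a non-coding antisense gene; with it the stromal level at LSS was 68.7.

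CYP51A1 was listed in the astromal condition only by name, but in both conditions by place. Its own name was given to 2 astromal peaks, each with 20.4 normalised tags (8 tags), at chr7:91763893-91764093 and chr7:91763506-91763706. The stromal list had 1 peak there, with 37.0 normalised tags (28 tags) at chr7:91763823-91764033, named for the antisense gene CYP51A1-AS1 whose start it lies nearer to. It overlapped the upstream astromal peak, and that pair had a log2 ratio of 0.86 (-0.31 to 2.2), against a median of 0.64 over all 5411 stromal peaks that overlap an astromal one. Summed under any name within 2 kb, CYP51A1 had 37.0 stromal and 40.8 astromal normalised tags, a log2 ratio of -0.14. Centred on the median of all genes counted in the same way it was -1.25 (-2.18 to -0.26), past 2-fold on the astromal side. The gap comes from the astromal peak that has no stromal counterpart. Counted under any name, 6 of the 8 genes were still stromal only, against 47.4% of all genes, and FDFT1 and CYP51A1 were in both lists.

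SREBF2, the regulator, had 3 stromal H3K9ac peaks and no astromal one within 143.36 kb. Their levels were 22.5 at chr22:42228284-42228494, upstream of the start at -694 bp, 15.9 at chr22:42229134-42229344, 156 bp downstream, and 17.2 at chr22:42229714-42229924, 736 bp downstream. Each peak was weak, between the 16.8 and 40.2 percentile of stromal peaks, while their sum of 55.6 (42 tags) put SREBF2 at the 70.0 percentile of stromal genes.

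**Figure D2:**
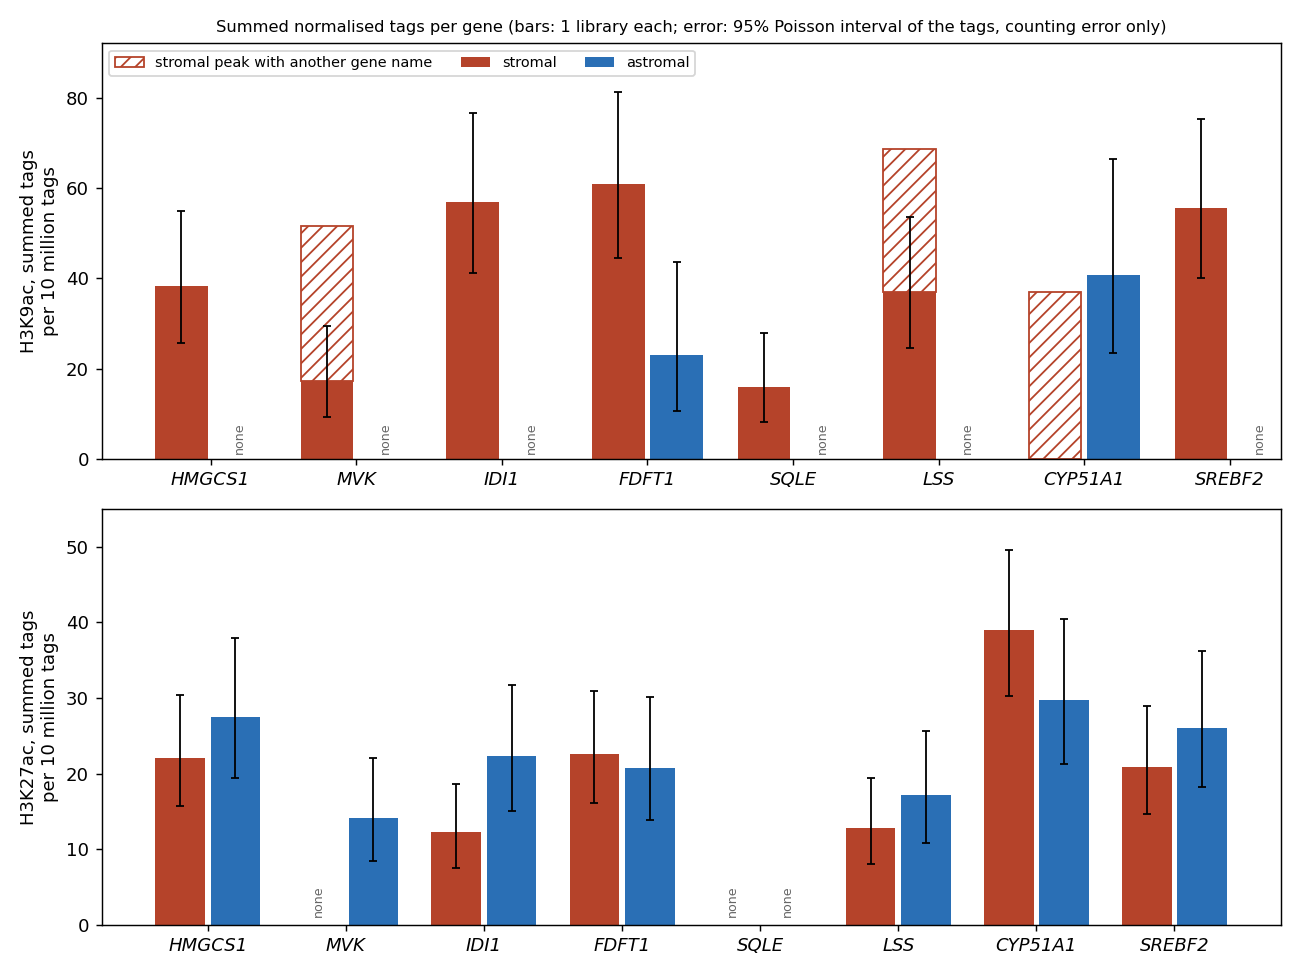
Normalised tags (per 10000000 tags of the library) summed over the peaks of each gene, H3K9ac above and H3K27ac below, stromal red and astromal blue, with 95% Poisson intervals of the tags. Hatched parts are stromal H3K9ac peaks that carry a neighbour's name, at MVK, LSS and CYP51A1; H3K9ac bars are mostly stromal, while H3K27ac bars of both conditions stand side by side at 6 genes.

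The stromal peaks were set against the depth of the astromal library, and the part of depth in what was listed was not tested. Both H3K9ac depths are estimates, and no calling threshold is stated for H3K9ac. Scaled to the astromal depth, the highest stromal peak of each gene would hold 15.0 tags at HMGCS1, 14.5 at LSS, 11.4 at IDI1, 10.9 at FDFT1, 8.82 at SREBF2, 6.74 at MVK and 6.22 at SQLE. All 7 exceed 5, the lowest count in the astromal list, but only 0.028% of astromal peaks were that low. MVK and SQLE are already below 7 tags, the 5th percentile of astromal peaks. Peaks found in both lists were already 1.55-fold higher in the stromal library, and divided by that as well the counts would be 9.70 at HMGCS1, 9.37 at LSS, 7.36 at IDI1, 7.03 at FDFT1, 5.69 at SREBF2, 4.35 at MVK and 4.01 at SQLE. The 5th percentile of astromal peaks is 7 tags, so these peaks of MVK, SQLE and SREBF2 would fall below it. SQLE and the named MVK peak would also fall below the lowest astromal count of 5, and SREBF2 would lie just above it. On this scaling a further lowering at the SQLE and named MVK peaks could not have been seen. The 1.55-fold covers only peaks listed in both conditions and need not hold for the others. The stronger stromal peak at the MVK start, given to MMAB, would hold 13.5 tags at the astromal depth and 8.7 after the further division, above the 5th percentile, as would HMGCS1 and LSS. FDFT1, the one gene among them with an astromal peak, was observed at 9 tags there.

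**Figure D3:**
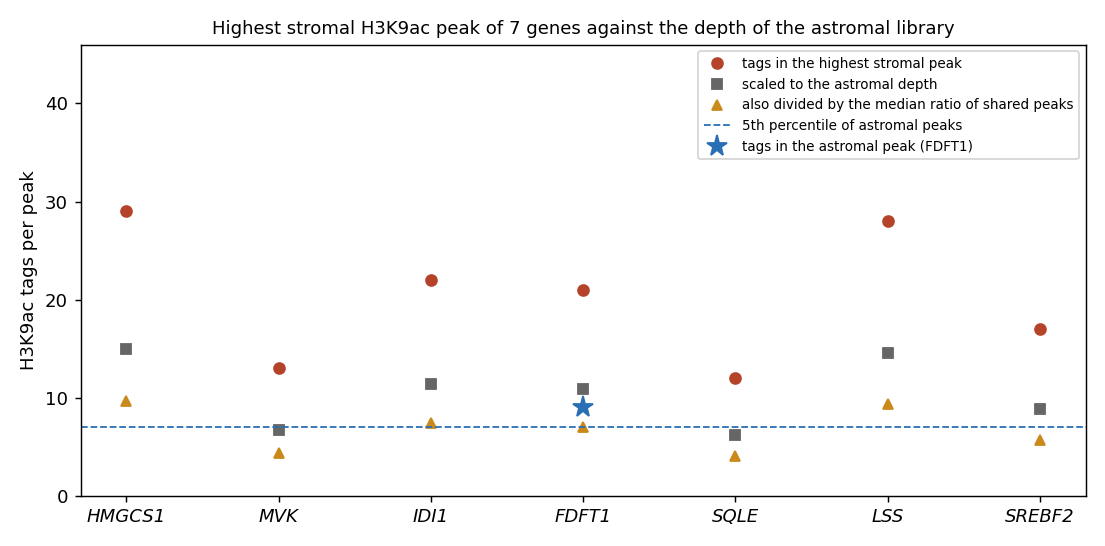
Tags in the highest stromal H3K9ac peak of 7 genes (red circles), the same scaled to the astromal depth (grey squares) and then divided by the 1.55-fold median of shared peaks (yellow triangles), with the 5th percentile of astromal peaks, 7 tags, as a dashed line. The peaks named for MVK, SQLE and SREBF2 end below the line and those of HMGCS1 and LSS above it; the star is the astromal FDFT1 peak, at 9 tags.

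H3K27ac did not follow the H3K9ac pattern: it was listed in both conditions at 6 of the 8 genes (75.0%), close to the 65.4% of all genes. These were HMGCS1, IDI1, FDFT1, LSS, CYP51A1 and SREBF2. None of the 8 had H3K27ac in the stromal list only, against 5.2% of all genes. MVK had it in the astromal list only, as did 7.64% of all genes, and SQLE in neither, as did 21.8%. Of the 6 genes with stromal-only H3K9ac, HMGCS1, IDI1, LSS and SREBF2 thus had H3K27ac in both conditions. The same share over all genes with stromal-only H3K9ac is not given here, so this is not read as particular to these genes. None of the 6 shared genes was past 2-fold from the median of all genes, against 12.1% of the 7964 genes shared. Their median centred log2 ratio was -0.15, with 2 of 6 above the median of all genes, while the middle 50% of all genes ran from -0.36 to 0.36. The median gene itself had a log2 ratio of -0.17, so ratios below are given relative to it.

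Among the early enzymes, HMGCS1 had 2 peaks in each library, with 11.6 and 10.5 normalised tags in the stromal library and 16.4 and 11.1 in the astromal one. Its sums of 22.1 stromal and 27.5 astromal gave a ratio of -0.15 (-0.84 to 0.54). The 2 downstream peaks overlap, 168 bp from the start in the stromal list and 179 bp in the astromal one. The 2 upstream ones do not, at -434 stromal and -744 astromal; with H3K27ac peaks kept only within 1 kb of an H3K9ac peak, the astromal one drops out and the ratio turns to 0.60. At MVK the only H3K27ac peak was astromal, with 14.1 normalised tags (19 tags) at chr12:110011077-110011273, upstream of the start at -325 bp. It lies in the same place as the stromal H3K9ac peak at chr12:110011075-110011285, and its fold over input was 46.28. At the stromal depth those 19 tags would be 24.3, above the lowest stromal H3K27ac peak of 9 tags, and the nearest stromal H3K27ac peak was 24.17 kb away. IDI1 had 1 stromal peak of 12.2 normalised tags and 2 astromal peaks of 12.6 and 9.66. The sums of 12.2 stromal and 22.26 astromal gave a ratio of -0.70 (-1.58 to 0.15), which by the highest peak was 0.15. The astromal peak without a stromal partner lay 606 bp downstream and overlapped the stromal H3K9ac peak at 461 bp.

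FDFT1 had stromal peaks of 14.5 and 8.14 normalised tags and 1 astromal peak of 20.8. Its summed ratio was 0.29 (-0.45 to 1.05) and that of the highest peaks -0.32. The stromal peak of 14.5 was only 5.58-fold over input, against 34.1-fold for the astromal one, and with peaks kept only at 8-fold over input or more the FDFT1 ratio was -1.18 (-2.22 to -0.21), past 2-fold. SQLE had no H3K27ac peak nearer than 93.42 kb in the stromal and 433.15 kb in the astromal list. LSS had 1 peak in each library, with 12.8 stromal and 17.1 astromal normalised tags, a ratio of -0.25 (-1.16 to 0.66), at places that did not overlap, 696 bp downstream of the start in the stromal list and 458 bp in the astromal one.

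CYP51A1 carried the strongest H3K27ac of the 8 genes in both conditions. Its highest peaks had 25.0 normalised tags in the stromal library, at the 95.1 percentile of that list, and 29.7 in the astromal library, at the 96.0 percentile. They overlap, at chr7:91763886-91764060 stromal and chr7:91763853-91764049 astromal, centred at -133 and -111 bp from the start. Their folds over input were 28.79 stromal and 97.44 astromal. A further stromal peak of 14.0 raised the stromal sum to 39.0, against 29.7 astromal, a ratio of 0.56 (-0.03 to 1.16) that was -0.05 by the highest peak. SREBF2 had 1 stromal peak of 20.9 normalised tags, at the 89.8 percentile, and astromal peaks of 16.4 and 9.66. Its summed ratio was -0.15 (-0.86 to 0.57), and 0.55 by the highest peak. At HMGCS1, IDI1, FDFT1, CYP51A1 and SREBF2, 5 of the 6 shared genes, the direction thus turned with which additional peaks were counted, and no direction is drawn from them.

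**Figure D4:**
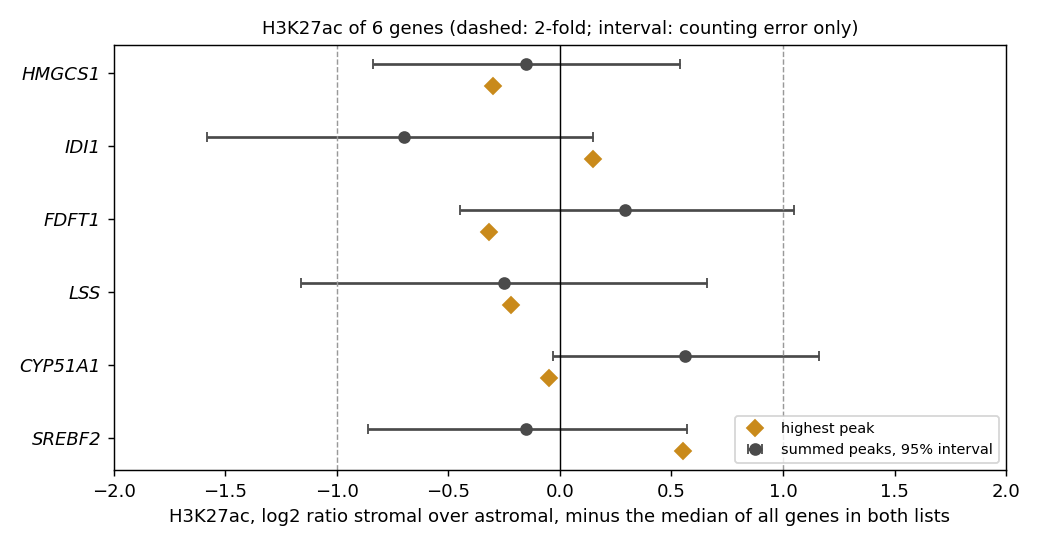
Log2 ratio of H3K27ac, stromal over astromal, minus the median of all genes in both lists, for the 6 genes with H3K27ac in both; circles are summed peaks with 95% intervals of counting error, diamonds the highest peak. Every interval includes 0, none of the circles passes the dashed 2-fold lines, and circle and diamond fall on different sides of 0 at IDI1, FDFT1, CYP51A1 and SREBF2.

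The positions of the peaks around the starts were compared between marks and conditions. Stromal H3K9ac peaks that carry a neighbour's name are not among the 12 below. Of these, the peak named CYP51A1-AS1 was overlapped by an astromal H3K9ac peak and by a stromal H3K27ac peak. Those named MMAB and MCM3AP-AS1 were overlapped by neither. Of the 12 stromal H3K9ac peaks 1, at FDFT1, was overlapped by an astromal H3K9ac peak (8.33%, 0.211 to 38.5), against 26.6% of all stromal peaks. In the other direction, 2 of the 3 astromal H3K9ac peaks were overlapped by a stromal one (66.7%, 9.43 to 99.2), against 75.8% of all. For H3K27ac, 5 of 9 stromal peaks were overlapped by an astromal one (55.6%, 21.2 to 86.3; 58.4% of all), and 5 of 10 astromal peaks by a stromal one (50.0%, 18.7 to 81.3; 60.8% of all). Among these 5 pairs the log2 ratios ran from -0.64 at HMGCS1 to 0.35 at SREBF2, around the median of -0.18 over all 8814. Stromal H3K9ac was overlapped by stromal H3K27ac in 3 of 12 peaks (25.0%, 5.49 to 57.2), at IDI1, FDFT1 and SREBF2, against 39.9% of all. Astromal H3K9ac was overlapped by astromal H3K27ac in 2 of 3 peaks, at FDFT1 and CYP51A1, against 59.7% of all. All of the intervals take in the share over all peaks. No stromal H3K9ac peak named for the 8 genes was centred within 150 bp of its named start, at 156 to 736 bp, a distance chosen after the values were seen. Among all stromal peaks within 1 kb of a start, 12.2% were that close, so with 12 peaks little can be read from it.

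Other genes of the pathway had H3K9ac in both lists more often than in the stromal list only. Of 34 further genes of synthesis, control, uptake and efflux, 30 had an H3K9ac peak: 11 in the stromal list only (36.7%, against the 52.2% of all names), 19 in both and none in the astromal list only. The 4 without one included SC5D, STARD4 and ABCG1. Among the 15 other synthesis enzymes, 14 had an H3K9ac peak. In the stromal list only were 7 (50.0%), close to the 52.2% of all names. Among them, ACAT2 had 58.1 normalised tags there and TM7SF2, a sterol reductase, 74.0. MSMO1 had 39.6, GGPS1 37.0, HSD17B7 37.0 and NSDHL 22.5. Among the genes that control SREBP-2, SCAP, its escort protein, was stromal only (37.0). INSIG2, which retains SCAP in the endoplasmic reticulum, was the one shared gene past 2-fold, with 76.5 stromal and 17.8 astromal normalised tags (centred 1.12, -0.02 to 2.49). The astromal value rests on 7 tags, and 12.9% of all genes in both H3K9ac lists were past 2-fold.

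Of the 10 uptake and handling genes, 8 had an H3K9ac peak. In the stromal list only were 3 (37.5%, against 52.2% of all names), and 5 were in both lists. SCARB1, the receptor for high-density lipoprotein, was stromal only with 85.9 normalised tags in 4 peaks, as was LIPA, the lysosomal lipase, with 54.2. ABCA1, the sterol exporter, and the liver X receptor genes NR1H2 and NR1H3 were in both lists. For H3K27ac, 23 of the 30 genes with an H3K9ac peak were in both lists, against 65.4% of all genes. In the stromal list only was 1 (SCAP, 6.98), against 5.2% of all genes. In the astromal list only were 3 (MSMO1 9.66, MYLIP 9.66 and SOAT1 8.92), against 7.64%. HSD17B7 was the one gene past 2-fold, with 28.55 stromal and 14.1 astromal normalised tags (centred 1.18, 0.39 to 2.03). Of all genes in both H3K27ac lists, 12.1% were past 2-fold.

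**Figure D5:**
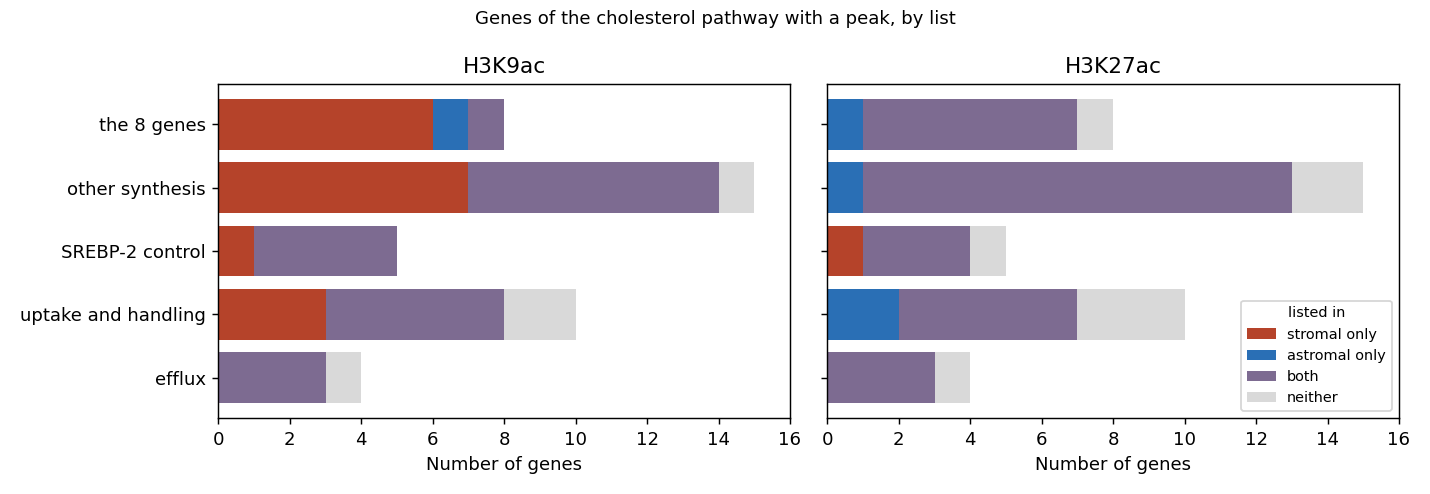
Number of genes with a peak in the stromal list only, the astromal list only, both or neither, for the 8 genes and 4 groups of other pathway genes, H3K9ac left and H3K27ac right. Stromal-only H3K9ac makes up 6 of the 8 genes and 7 of the 15 other synthesis enzymes. These are 75.0% and 50.0% of those with an H3K9ac peak, against 52.2% of all names. For H3K27ac, 6 of the 8 genes and 12 of the 15 other synthesis enzymes are in both lists. So are 5 of the 10 uptake and handling genes. Genes without an H3K9ac peak had no H3K27ac window and are drawn as neither.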

How the data were processed

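The data are 4 peak lists, 1 per mark and condition, with 1 library each; peaks were called per library, not on pooled libraries. The submitters' processing notes name CASAVA 1.8.2, Bowtie, HOMER and the build hg19. H3K27ac peaks were called against input at an FDR of 0.001, with at least 4-fold over input and over the surrounding 10 kb, per the file headers. For the H3K9ac peaks no calling threshold is stated in the labels or headers, and the H3K9ac lists hold no fold over input. For H3K27ac the signal used is the tag count per peak that the authors normalised to 10000000 tags, per the file headers. For H3K9ac it is the deposited peak score, taken to be on the same scale. Raw tag counts deposited for astromal H3K27ac equalled those recomputed from the signal in 94.0% of peaks and differed by at most 3 tags. The ratio of each H3K27ac peak to input and the findPeaks score are the authors' deposited values. H3K9ac tags came from the even steps of the signal, all within 0.1 tag of a whole number.

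Signal was summed over the peaks of a gene, compared as a log2 ratio, stromal over astromal, and centred on the median of all genes in both lists (Python 3.11.15, SciPy 1.17.1). Past the fold means at least 2-fold after centring. Peaks overlapped at 1 bp or more. Intervals are exact (Clopper-Pearson for ratios and shares, Poisson for tags) and cover counting error only. Scripts were tested on simulated data. All 8 genes are named, other pathway genes where they were in 1 list only, in neither or past the fold, plus the efflux genes, and some genes of the list are not reported here; members and lists were chosen with earlier results of these data known. Alternatives were windows, tag minimum, highest peak, centring, width, score, fold over input and overlap rule. The 4 inputs are not analysed here on their own.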

Additional observations from a re-analysis of the deposited data

How the results depend on the processing

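Of 40 alternative values, 38 moved by less than counting error or, for counts, stayed within 1.5 times; for single genes these 40 cover only the highest peak and no centring. Outside them, the H3K27ac ratio of FDFT1 was -1.18 (-2.22 to -0.21) in place of 0.29 for peaks at least 8-fold over input. That of HMGCS1 was 0.60 (-0.19 to 1.43) in place of -0.15 with a window of 1 kb. Both lie outside the interval of the reported value, but the new interval of HMGCS1 takes in -0.15. The number of stromal H3K27ac peaks overlapped by an astromal one was 3 in place of 5 when at least 50% of the peak had to be covered, and CYP51A1 H3K27ac was -0.05 in place of 0.56 by its highest peak. Genes listed for H3K9ac in the stromal condition alone numbered 6 or 7, with 7 for peaks of at least 10 tags, where FDFT1 loses its astromal peak. The H3K9ac median of 0.42, which rests on FDFT1 alone, was -0.40 by the highest peak and -0.47 over 2 genes with peaks of any name. The H3K27ac median of -0.15 ran from -0.35 with the findPeaks score to 0.07 with a window of 1 kb. The findPeaks score could not be used for H3K9ac, whose lists hold no score apart from the signal itself. No gene was left in both H3K9ac lists at 10 tags, so these 2 alternatives have no value. No paired analysis was possible because each group has 1 library. The astromal H3K9ac library was the shallowest, and the part of depth in its shorter list was not tested. With 1 library per group the conditions and the libraries cannot be told apart.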
